A study of Mus musculus with 9 samples.

Results

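V7 is 1 of 10 clusters, V1 to V10, into which the authors' labels divide the visceral motor neurons (MNs) of the adult mouse spinal cord. Its members are the nuclei that carry the label V7: 557 of 5613 visceral nuclei, which are 9.92% of that class, and of 16042 cholinergic nuclei in all. The nuclei came from mice aged 8 weeks of the strain *Chat-IRES-Cre*::*Sun1-sfGFP*, whose genotype is given as Chat-iCre:+/wt and SUN-SfGFP:+/wt in every library, so there is no group without the driver or the reporter. Cre under the choline acetyltransferase gene *Chat* switches on a GFP-tagged protein of the nuclear envelope, and nuclei positive for GFP and the DNA dye DRAQ5 were sorted, so any cell that has ever used *Chat* can carry the tag. Cords of 12 mice went into 3 pools of 4, a mixed pool of 2 males and 2 females (replicate 1), a male pool (replicate 2) and a female pool (replicate 3). From every pool 1 library was made per region, cervical, thoracic and lumbar/sacral, so libraries of the same replicate number hold nuclei of the same mice, and sex cannot be told apart from pool.

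Visceral MNs are the preganglionic neurons of the autonomic nervous system. They lie in the spinal cord, release acetylcholine and contact neurons of peripheral ganglia, which in turn reach smooth muscle, heart and glands. Sympathetic preganglionic neurons are found mainly at thoracic and upper lumbar levels and parasympathetic ones at sacral levels. Clusters of such neurons are told apart by their transcription factors, receptors, secreted peptides and adhesion molecules.

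The values are corrected counts, that is, counts of transcripts per nucleus after a model has evened out sequencing depth among nuclei processed together. Here the V7 nuclei of a library were added up, and the sum was set to 1000000; levels on this scale are given as CPM. V7 nuclei had a median of 8057 corrected counts and 3078 genes, against 7504 and 3158.5 in the nuclei of the other V clusters. The V7 sums ranged from 91442 corrected counts in lumbar/sacral replicate 1 (20 nuclei) to 1471412 in thoracic replicate 1 (148 nuclei), so that 1 corrected count is worth 10.9 CPM in the first and 0.68 CPM in the second. Levels of weakly expressed genes in lumbar/sacral V7 thus rest on few counts.

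The libraries of replicate 2 labelled cervical and thoracic go against their labels. *Hoxa9*, a homeobox gene of caudal segments, measured over all visceral nuclei, stood at 0.407 and 0.535 CPM in cervical replicates 1 and 3 but at 5.31 CPM in the library labelled cervical replicate 2. In thoracic replicates 1 and 3 it stood at 6.41 and 3.85 CPM, against 0.277 CPM in the library labelled thoracic replicate 2. *Hoxc5* showed the same reversal, with 42.2 and 49.5 CPM in cervical replicates 1 and 3 and 78.3 CPM in the library labelled cervical replicate 2, against 93.8 and 97.2 CPM in thoracic replicates 1 and 3 and 32.7 CPM in the library labelled thoracic replicate 2. The labels were kept as given. Comparisons of lumbar/sacral with the other 2 regions together, called rostral, do not depend on this order. Of 66 cholinergic nuclei whose barcode also occurs in another library, 4 were in V7, and Scrublet called 2 V7 nuclei doublets.

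V7 nuclei were found in every library, and their share of the visceral nuclei varied several-fold (the bar plot of shares). It was 6.13% in cervical replicate 1, 14.8% in the library labelled cervical replicate 2 and 7.22% in cervical replicate 3. It was 17.2% in thoracic replicate 1, 5.22% in the library labelled thoracic replicate 2 and 16.6% in thoracic replicate 3. Lumbar/sacral tissue gave 2.97, 5.33 and 6.9%. The highest shares were thus in thoracic replicates 1 and 3 and in the library labelled cervical replicate 2, and the 2 thoracic ones alone held 55.8% of all V7 nuclei. The mean share was 5.07 ± 1.98% (SD, n = 3) in lumbar/sacral and 11.2 ± 5.58% (SD, n = 6) in rostral libraries, and the groups overlapped. The difference of -6.13 points did not pass a two-sided exact permutation test over 84 groupings (p = 0.107, the smallest possible being 0.0119). In each of the 3 replicates the lumbar/sacral share lay below the mean of the rostral ones, and an exact permutation within replicates, over 27 groupings, gave p = 0.111 (smallest possible 0.037). Part of the lumbar/sacral denominator is V8, a cluster that is almost only lumbar/sacral. Outside V8 the lumbar/sacral mean was 7.28% and the difference -3.92 points (exact permutation p = 0.345).

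**Figure D1:**
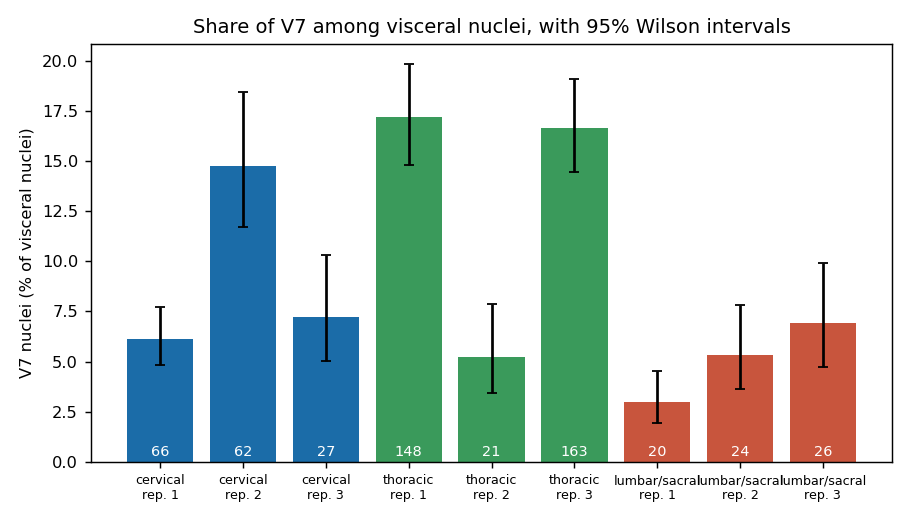
Share of V7 among the visceral nuclei of each library (bars, percent) with 95% Wilson intervals, which cover counting error only; the number in each bar is the number of V7 nuclei. The 3 highest bars are thoracic replicates 1 and 3 and the library labelled cervical replicate 2, and the lowest is lumbar/sacral replicate 1 at 2.97%.

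The 2 genes used to mark V7 are *Piezo2*, a mechanically gated cation channel of touch and stretch receptors, and *Fbn2*, which encodes the extracellular microfibril protein fibrillin 2. In the GRCm38 build *Piezo2* spans positions 63010213 to 63387183 and *Fbn2* positions 58008623 to 58210487 of chromosome 18, both on the minus strand. *Fbn2* was stable in V7. Its level was 584, 459 and 685 CPM in the cervical libraries, 618, 410 and 404 CPM in the thoracic ones and 558, 647 and 662 CPM in the lumbar/sacral ones. It was not particular to V7 within the class: the mean of 559 CPM lay below that of V8 (1172), V2 (949), V3 (849) and V5 (750), and above that of V9 (94.1) and V10 (200.1). Skeletal MNs and cholinergic interneurons had at most 30.7 CPM of *Fbn2* in any cluster, so it separated V7 from those classes.

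*Piezo2* varied widely between the libraries of V7. It stood at 66.7, 156 and 64.7 CPM in the cervical libraries and 231, 5.7 and 192 CPM in the thoracic ones, in the order of the replicates. In lumbar/sacral V7 it was 569, 223 and 386 CPM. The lowest value, 1 nucleus of 21 with the transcript, was in the library labelled thoracic replicate 2, and the groups overlapped. The mean difference between lumbar/sacral and rostral V7 was 2.11 on the log2(CPM + 5) scale (SE 0.72), and it did not pass the test over all genes (limma, adjusted p = 0.305). Averaged over libraries, V7 (210 CPM) stood near V5 (220) and V4 (272) and above V3 (98.9) and V2 (79.5). *Piezo2* was higher in V7 than in the mean of the other V clusters in 8 of 9 libraries, the exception being the library labelled thoracic replicate 2, and it was higher still in the interneuron clusters I8 (1515), I7 (861) and I1 (735). *Piezo2* was found in 57.6% of V7 nuclei as deposited and in 43.6% of the 546 V7 nuclei that could be thinned to 4600 corrected counts, against 20.5 and 15.5% in the other V clusters together and 11.4 and 7.9% in skeletal MNs (median 7393 corrected counts).

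Other class markers gave a mixed picture. *Zeb2*, a zinc-finger repressor used with *Fbn2* to recognise visceral MNs, was low in V7 in every library. Its values were 33.4, 37.2 and 45.7 CPM in cervical, 65.2, 17.1 and 40 CPM in thoracic and 54.7, 47 and 36.4 CPM in lumbar/sacral V7. The other V clusters had means of 223 to 698 CPM, apart from V8 with 7.79 CPM. *Zeb2* was found in 23.3% of V7 nuclei, against 75.2% of the nuclei of the other V clusters and 5.52% of skeletal MNs, and in 15.6, 69.8 and 3.7% after thinning. *Chat* was also lower than in the other V clusters in all 9 libraries, with a mean of 121 ± 29.3 CPM (SD, n = 9) against 219 CPM, a log2 difference of -0.84, while the choline transporter gene *Slc5a7* (282 CPM) and the intermediate filament gene *Prph* (70.7 CPM) differed by -0.24 and -0.35. Of the defining genes of the other cholinergic classes, the skeletal marker *Tns1* had 58.7 CPM in V7, the highest mean of the visceral clusters (4.7 to 53.1 CPM in the others), against 354 to 400 CPM in the 3 skeletal clusters. It was found in 35.4% of V7 nuclei, 18% of the nuclei of the other V clusters and 91.4% of skeletal MNs, or 22.9, 11.9 and 82.2% after thinning. V1 was like V7 in this, with 36.3% as deposited and 22.8% after thinning. Of 7 skeletal markers that passed the filter described below, *Tns1* was higher and *Gpr149* lower in V7 in every library and by a mean of at least 1. Over all genes the shares were 1.5 and 1.62%. *Bcl6*, another of the 7, stood at 2 CPM in V7 and at 3.2 to 40.4 CPM on average in the other visceral clusters. The part of RNA of skeletal MNs in other differences was not tested. The interneuron marker *Pax2* had 4.77 CPM, against 98.3 to 380 CPM in the interneuron clusters other than I8 (9.55 CPM). Over the marker lists of non-neuronal cells, the summed level in V7 ran from 52.8 to 87.6 CPM for 7 oligodendrocyte genes, 14.6 to 58.8 CPM for 6 astrocyte genes, 21.4 to 124 CPM for 5 microglial genes and 0 to 5.44 CPM for 2 endothelial genes. In the other V clusters of the same libraries the ranges were 40.8 to 63.8, 14.5 to 30.8, 25.3 to 98.6 and 1.33 to 4.88 CPM. By its *Fbn2* level V7 stood with the visceral clusters, and by *Zeb2* it did not stand with most of them.

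**Figure D2:**
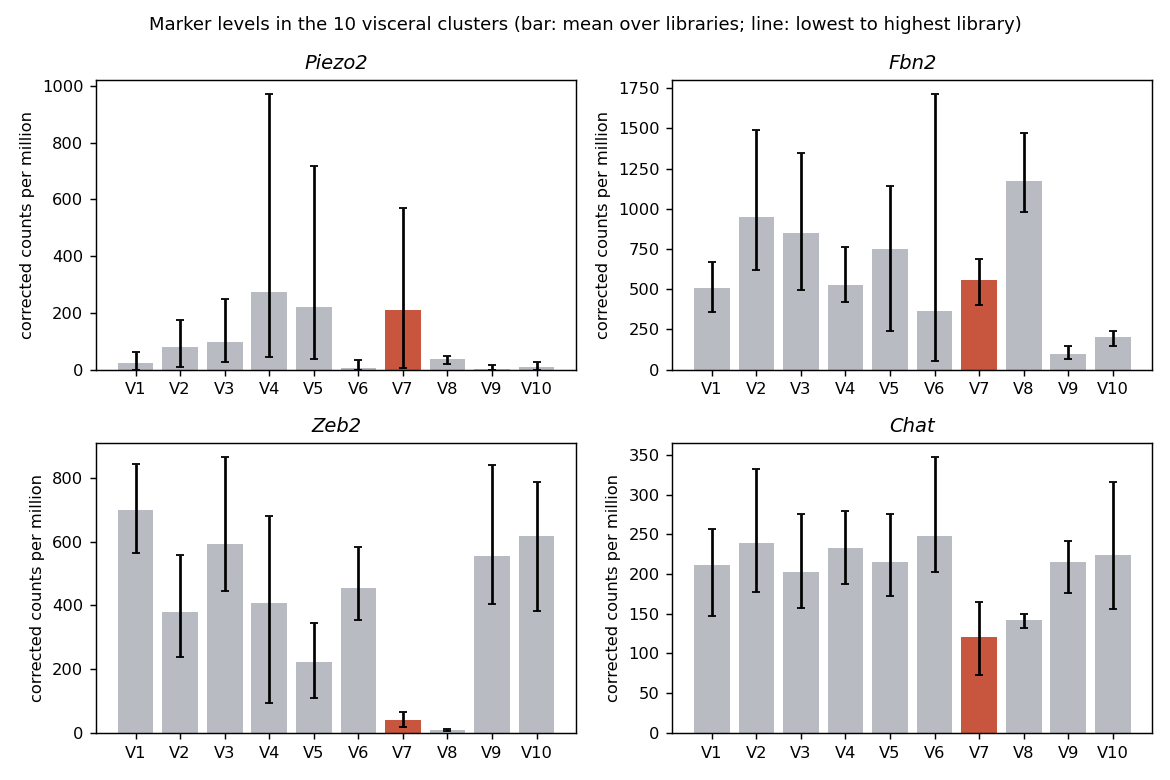
Levels of *Piezo2*, *Fbn2*, *Zeb2* and *Chat* (CPM) in the 10 visceral clusters, over libraries with at least 10 nuclei of the cluster; bars give the mean over libraries and lines the lowest and the highest library, with V7 in red. V7 has the third mean of *Piezo2* (210), an intermediate one of *Fbn2* (559), and low *Zeb2* (41.9) beside every other cluster but V8.

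To describe what else sets V7 apart, its level was compared within each library with the mean of the other V clusters that held at least 10 nuclei there, 7 or 8 clusters, on the log2(CPM + 5) scale. The clusters were drawn from these same genes and nuclei, so these differences describe V7 and carry no test. Of 10679 genes that passed the filter, 160 (1.5%) were higher in V7 in all 9 libraries and by a mean of at least 1, and 173 (1.62%) were lower by the same rule. The rule uses means of logs, whereas levels of the other V clusters are given as plain means of CPM, which a single high cluster can raise. A gene can thus count as higher although another cluster matches or exceeds V7. V7 was the highest of the V clusters in every library for 37 genes (0.346%) and the lowest for 8 (0.0749%). Across genes, the profile of V7 was most like those of V4 and V3 (mean Pearson correlation over libraries 0.871 and 0.87 across the genes that passed), which are descriptions over genes of shared libraries.

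The gene farthest above the other clusters was *Fam19a1*, which encodes a secreted neuronal protein of the TAFA family and lies on chromosome 6 at 96113154 to 96657198 (GRCm38, plus strand). Its V7 level was 367, 362 and 346 CPM in cervical, 440, 359 and 300 CPM in thoracic and 394, 347 and 306 CPM in lumbar/sacral libraries. The other V clusters had a mean of 28 CPM, and none reached 50 CPM on average. The log2 difference was 3.89 ± 0.84 (SD over 9 libraries). *Fam19a1* was found in 71.3% of V7 nuclei and 11.1% of the other visceral nuclei, or 61.9 and 7.39% after thinning. It was not restricted to V7 among cholinergic neurons, since skeletal MNs had 182 to 576 CPM per cluster. Its relative *Fam19a2* (chromosome 10, 123263996 to 123741204) reached 1705 ± 385 CPM in V7, with V10 next at 1060 CPM, and was found in 99.5% of V7 nuclei.

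*Dcc*, the netrin receptor of growing axons, stood at 3920 ± 977 CPM in V7 and between 2893 and 5249 CPM in each library. It was found in every V7 nucleus, also after thinning, and in 57.4% of the nuclei of the other V clusters. V10 came next among visceral clusters with 1757 CPM, and the interneuron cluster I7 had more (4269 CPM). Other adhesion and guidance genes at the top were *Lrrc4c*, a ligand of netrin G1 (difference 3.01 ± 1.34), *Ntm*, an adhesion protein of the immunoglobulin family (2.96 ± 0.37), and *Sdk1*, a synaptic adhesion molecule (2.47 ± 0.92). The difference in *Lrrc4c* was smallest in the lumbar/sacral libraries (0.83, 1.45 and 1.66), and V8 had more of it (8556 CPM) than V7 (6236 CPM).

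Among signalling genes, *Pde1c*, a phosphodiesterase that breaks down cAMP and cGMP when calcium rises, had 316 ± 72.4 CPM in V7 and 48.3 CPM in the others (2.94 ± 0.5). *Rasgrf1*, an exchange factor for Ras, had 548 CPM in V7 against 144 CPM (2.81 ± 0.86), with V8 next at 497 CPM. *Fgf10*, a secreted fibroblast growth factor, had 57.8 ± 37.9 CPM against 6.95 CPM. *Nek10*, a protein kinase, had 61 CPM against 6.93 CPM. Of transcriptional regulators, *Sall3* had 57.1 CPM and was otherwise near 0 except in V4 (45.6 CPM), *Mkx* had 211 ± 29.5 CPM against 47.4 CPM, and *Eya4* had 73.9 ± 46.4 CPM against 17.6 CPM, although V8, found almost only in lumbar/sacral libraries, had more of it (184 CPM). The long non-coding RNA *Rmst* had 1079 ± 278 CPM against 220 CPM. *Postn*, which encodes the matrix protein periostin, differed by 2.59 ± 0.83 in the mean of the logs, although V3 had more of it (369 CPM) than V7 (167 CPM), and the V7 value in the library labelled thoracic replicate 2 was only 28.5 CPM.

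Of the genes farthest below the other clusters, *Zfp804b*, a zinc-finger gene, had 87.9 ± 105 CPM in V7 and 1805 ± 373 CPM in the other V clusters (difference -3.88 ± 1.06). *Klhl1*, of the kelch family, whose difference of -3.51 ± 0.22 had the smallest SD over libraries of these 10 genes, stood at 63.6 ± 21.2 CPM against 928 ± 196 CPM, and V7 was the lowest V cluster in all 9 libraries. *Pappa*, a protease that frees insulin-like growth factors, had 10.5 CPM against 255 CPM. Both peptide receptors of the group were low in V7: *Qrfpr*, for the peptide QRFP, at 7.14 ± 10.7 CPM against 217 CPM, and *Hcrtr2*, for orexin, at 3.99 ± 5.18 CPM against 109 CPM. The cell surface and matrix genes *Cntn4* (103 against 1235 CPM), *Hmcn1* (15.5 against 296 CPM) and *Ptprz1* (10.1 against 163 CPM) completed the group with *Zeb2* (41.9 against 465 CPM) and *Fgd5*, an exchange factor for Cdc42 (1.67 against 63.3 CPM). Single other clusters were also low in several of these genes. *Hmcn1* had 10.5 CPM in V8 and 21.8 CPM in V4, *Ptprz1* 12.9 CPM in V10 and *Cntn4* 117 CPM in V6. *Zfp804b* had 91 CPM in V8, *Pappa* 26.3 CPM in V4 and *Hcrtr2* 11.1 CPM in V6. Of the 25 genes farthest from the other clusters in either direction, 10 overlap another gene of the matrix on the opposite strand and none on the same strand. How the counting treated strand is not given in the sources used here.

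**Figure D3:**
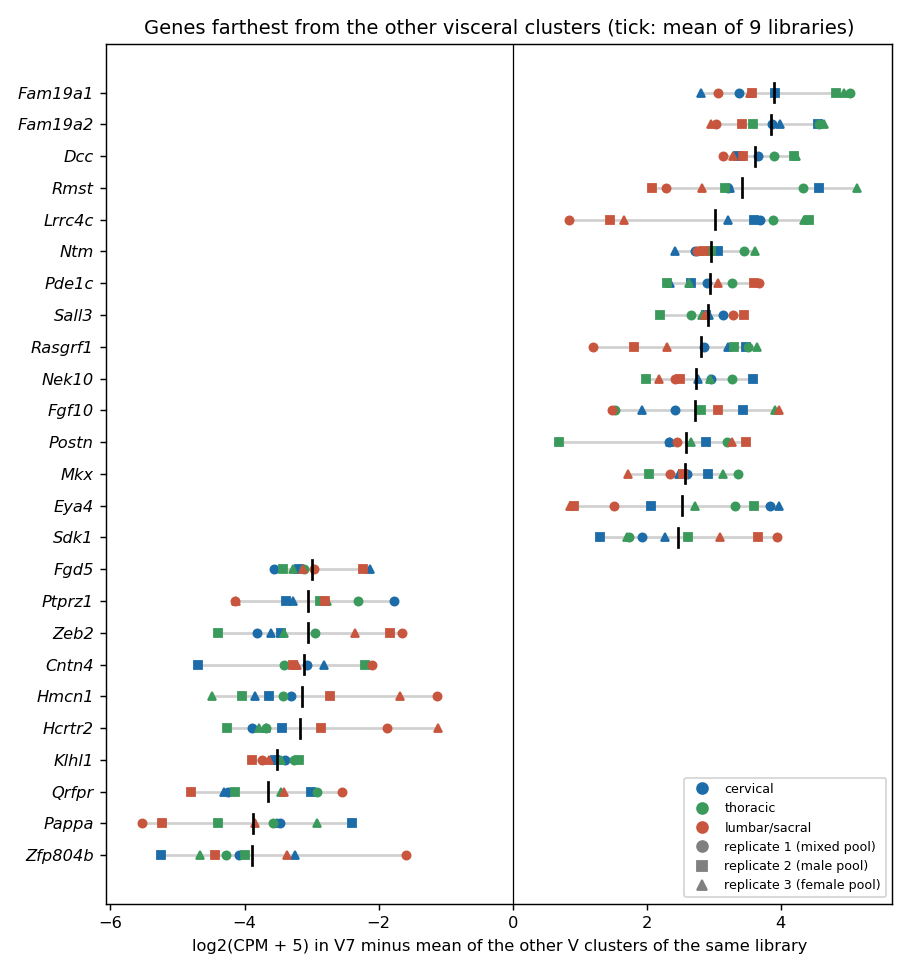
Difference between V7 and the mean of the other V clusters of the same library on the log2(CPM + 5) scale, for the 15 genes farthest above and the 10 farthest below; each point is a library, coloured by region and shaped by replicate, and the tick is the mean. Genes were chosen for the same sign in every library, so that choice fixed the side of all 225 points. Nearest to 0 were *Lrrc4c*, *Rasgrf1* and *Eya4* in lumbar/sacral libraries and *Postn* in the library labelled thoracic replicate 2.

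Genes for which V7 was the highest V cluster in every library are the ones that separate it from each neighbour alone. *Fam19a1* had the widest gap to the next cluster, 2.56 on the log2 scale, followed by *Pde1c* (1.43), *Dcc* (1.41), *Kynu* (1.38) and *Ntm* (1.37). *Kynu* encodes kynureninase, an enzyme of tryptophan breakdown. It was low in V7 (19.9 ± 9.39 CPM) but 2.59 CPM or less on average in each other visceral cluster. *Nova1*, a neuronal splicing factor, had 222 ± 53.7 CPM in V7 and at most 82.9 CPM elsewhere, *Rnf152* 103 ± 23.3 CPM and at most 42.5 CPM, and the cadherin gene *Cdh10* 694 ± 173 CPM and at most 323 CPM. None of the 5 genes *Fam19a1*, *Dcc*, *Pde1c*, *Ntm* and *Mkx* was called between regions within V7 (limma, adjusted p from 0.693 to 0.936).

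**Figure D4:**
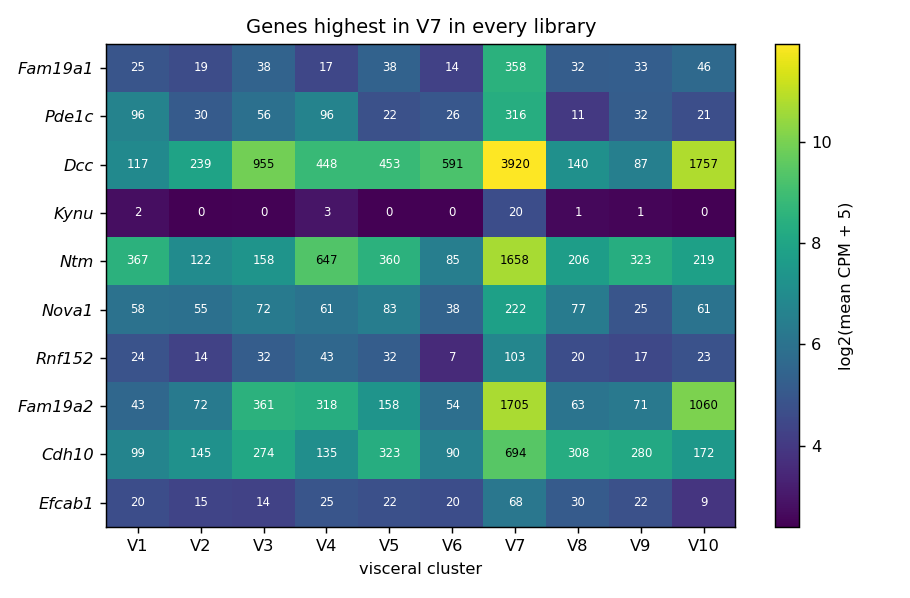
Mean CPM over libraries (numbers) of 10 genes that were highest in V7 among the visceral clusters in every library, coloured on the log2(mean CPM + 5) scale, with clusters in columns. *Fam19a1* at 358 CPM in V7 against at most 45.7 CPM in another cluster shows the widest gap, and V10 comes nearest for *Dcc* and *Fam19a2*.

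Since *Zeb2* was low in V7, and the protein it encodes is known to bind the letters CACCTG on either strand, promoters were searched for this motif in the RefSeq promoter table for GRCm38.p6, from 250 bases before to 50 after a gene's start, using the first start listed. It was present in 20 of 110 promoters (18.2%) of the genes higher in V7, in 22 of 124 (17.7%) of those lower in V7, in 17.2% of 8082 promoters of genes that passed the filter, and in 20% of all 27025 promoters. The promoters of the genes higher in V7 thus held the letters about as often as the rest. Among the genes farthest above the other V clusters, the windows of *Lrrc4c*, *Ntm*, *Rasgrf1*, *Nek10*, *Fgf10*, *Postn*, *Eya4* and *Sdk1* each held 0 matches. The windows of *Ntm*, *Nek10*, *Fgf10* and *Eya4* lie inside the annotated gene, downstream of its outermost start. Those of *Postn* and *Rasgrf1* end before the annotated gene begins. For these genes the sequence at the outermost annotated start was not searched. *Pde1c*, one of the genes that mark V7 most sharply, is shown because its window holds a match. The window at the first start listed for it (chr6:56362343-56362642, GRCm38.p6, minus strand) lies inside the annotated gene (56069804 to 56569103), downstream of its outermost start, and holds 1 match, shown in capitals as it reads on the strand of the gene.
*Pde1c*, first listed start: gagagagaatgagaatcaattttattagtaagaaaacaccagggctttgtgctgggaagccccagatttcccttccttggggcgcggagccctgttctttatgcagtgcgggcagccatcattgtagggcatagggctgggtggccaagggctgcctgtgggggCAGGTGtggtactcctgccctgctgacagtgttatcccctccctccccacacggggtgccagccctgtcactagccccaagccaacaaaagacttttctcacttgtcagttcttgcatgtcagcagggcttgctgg
A match of letters does not show that a protein binds there.

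By gene group, 0 of 8 measured genes of acetylcholine synthesis, packaging and breakdown were higher and 0 lower by the rule above, beside 1.5 and 1.62% of all genes. *Chat* itself was lower in every library but by less than 1. The summed level of the group was 1120 to 1460 CPM in V7 and 1420 to 2090 CPM in the other V clusters. Of 3 acetylcholine receptor genes that passed the filter, *Chrm2*, the inhibitory muscarinic M2 receptor, was higher (718 CPM in V7 against 275 CPM, difference 1.77 ± 0.77, highest of the V clusters in every library), and *Chrm3*, the excitatory M3 receptor, was lower (24.2 against 223 CPM, -2.1 ± 0.92). *Chrm2* was found in 90.1% of V7 nuclei after thinning, against 54.3% of the nuclei of the other V clusters. It was not particular to V7, since V4 had 81.4% and skeletal MNs had 89.3% after thinning, while V8 had 11.7%. In the nitric oxide and cGMP group, 1 of 11 genes was higher (*Pde1c*) and 2 lower. These were *Nos1*, neuronal nitric oxide synthase, at 69.4 CPM against 247 CPM (-1.45 ± 0.68), and *Gucy1a1*, a subunit of the receptor for nitric oxide, at 5.14 CPM against 20.8 CPM (-1.35 ± 0.9). Low *Nos1* was shared with other clusters. After thinning it was found in 21.4% of V7, 22.5% of V1, 26.2% of V4 and 28.1% of V8 nuclei, against 48.5% of V3 and 78.7% of V2. The median difference over this group was -0.379, against 0.00405 over all genes that passed.

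Of 18 mechanosensitive and TRP channels that passed, the receptor-operated channels *Trpc7* (30.2 against 3.14 CPM, 2.18 ± 0.72) and *Trpc6* (67.8 against 22.9 CPM, 1.62 ± 0.65) were higher in every library. *Piezo2* (mean difference 1.86 ± 1.16) and the potassium channel *Kcnk2* (1.37 ± 1.33) differed on average but not in every library. The median of the group was 0.129. Over all genes that passed, 1.5% were higher and 1.62% lower in every library and by a mean of at least 1. Ion channels of other kinds showed more exceptions than trends. Of 41 potassium channel genes, *Kcnj3* (227 against 85.8 CPM) and *Kcnq5* (713 against 344 CPM) were higher and *Kcnd2* (730 against 2056 CPM), *Kcnj6* (3.5 against 18.4 CPM) and *Kcnk12* (6.11 against 22.2 CPM) lower. *Kcnj3* and *Kcnj6* both encode G protein-gated inward rectifiers. Of 32 sodium, calcium and HCN channel genes, 3 calcium channel auxiliary genes were higher, with *Cacna2d3* at 307 CPM against 90 CPM (1.94 ± 0.52), and 0 were lower.

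Among receptors for transmitters and peptides, *Grm8*, a presynaptic metabotropic glutamate receptor (773 against 397 CPM, 2.2 ± 0.43), was higher, and *Gria2*, the subunit that keeps AMPA receptors tight to calcium, was lower (362 against 897 CPM, -1.14 ± 0.17). They were the 2 exceptions among 23 glutamate receptor genes. For these and the receptor counts below, the shares over all genes were 1.5% higher and 1.62% lower. Of 10 adrenergic, serotonin and dopamine receptors, *Adra1b* (58.5 against 32.6 CPM, 1.32 ± 0.4) and *Htr1f* (84.1 against 40.8 CPM, 1.22 ± 0.67) were higher and *Htr2a* lower (25.1 against 91.4 CPM, -1.33 ± 0.43). *Htr2c* had 277 CPM in V7 and was lower than the other V clusters in 8 of 9 libraries (mean difference -1.38). Of 19 GABA and glycine receptor genes, *Gabrg1* was lower (13.6 against 131 CPM), and of 13 peptide receptors *Hcrtr2* and *Rxfp1* (1.22 against 64.4 CPM) were lower. Peptide genes themselves were sparse. Of 30 neuropeptide genes listed, 7 passed the filter, of which *Nxph1*, a ligand of neurexins, was higher (1562 against 753 CPM) and 0 were lower by the rule. The median difference over the 7 was nevertheless -0.645, against 0.00405 over all genes that passed.

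Among 39 transcription factors of motor neurons and their columns, *Meis2* (758 against 297 CPM, 2.05 ± 0.76) and *Nfia* (249 against 88.9 CPM, 1.69 ± 0.58) were higher, and *Zeb2*, *Foxp2* (6.47 against 76.9 CPM), *Rorb* (1.08 against 27.4 CPM) and *Tshz1* (10.9 against 43.1 CPM) were lower, with a median of -0.392. Beside these counts and those below stand 1.5% of all genes higher and 1.62% lower. Of 40 axon guidance genes, *Dcc*, *Efna5* (1174 against 615 CPM) and *Epha3* (207 against 161 CPM) were higher, and *Unc5c*, a second netrin receptor (256 against 834 CPM, -1.66 ± 0.68), and *Sema6a* (18.1 against 126 CPM) were lower. *Dcc* and *Unc5c* thus differed in opposite directions. Cadherins did the same: *Cdh10* and *Pcdh15* (2935 against 1513 CPM) were higher, and *Cdh8* (35.2 against 432 CPM), *Cdh4* (30.4 against 151 CPM) and *Cdh23* (1.28 against 17.6 CPM) were lower, of 22.

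Of 28 collagen and secreted matrix genes, 2 were higher (*Postn* and *Gpc6*, 1125 against 439 CPM) and 6 lower, of which *Col11a1* lay farthest below (14.5 against 148 CPM, -2.77 ± 1.24). Among 12 genes of the fibrillin group, which *Fbn2* belongs to, only *Fras1* was lower (1.42 against 107 CPM) and 0 were higher. Of 27 genes of neurotrophic factors and their receptors, *Fgf10*, the neurturin receptor *Gfra2* (26.2 against 2.29 CPM, 2.06 ± 0.74) and *Met* (46.2 against 25.6 CPM) were higher, and *Alk* (131 against 495 CPM), *Lifr* (6.94 against 33.7 CPM) and *Bdnf* (2.88 against 23.1 CPM) lower. *Aldh1a1*, which makes retinoic acid, was the 1 exception of 8 genes of that pathway (5.24 against 54.7 CPM). None of the 5 Hox genes, 10 neurofilament genes or 3 immediate early genes that passed met the rule in either direction. Over all genes that passed, the rule gave 1.5% higher and 1.62% lower.

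Within a library, V7 nuclei also differed from one another. The variance of each gene over the V7 nuclei was set against the trend of variance on mean in that library, for 2989 genes with a mean of at least 0.2 corrected counts in every library. In all 9 libraries, 82 genes lay above the trend. The 10 that stayed farthest above it were *Hs6st3*, *Grm8*, *Pcdh11x*, *Egfem1*, *Fam19a1*, *Galntl6*, *Kcnip4*, *Htr2c*, *Prkg1* and *Unc5c*. *Hs6st3*, a sulfotransferase of heparan sulfate, had a log2 excess between 1.08 and 2.35 and was found in 65.9% of V7 nuclei, and *Htr2c*, a serotonin receptor, had an excess between 0.636 and 3.9 and was found in 46.9%. Over nuclei of a library, *Hs6st3* and the potassium channel-interacting gene *Kcnip4* varied together (mean correlation 0.379, from 0.0687 to 0.593), and *Pcdh11x*, a protocadherin, ran against *Kcnip4* (mean -0.427, from -0.653 to -0.262). These pairs are the extremes of 45, chosen by their values, and the nuclei share their library and depth. *Fbn2* (-0.648 to 0.981) and *Chat* (-0.397 to 0.175) lay on both sides of the trend.

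Whether V7 differed along the cord was tested between its 3 lumbar/sacral and 6 rostral sums. Of 10221 genes tested, 8 (0.0783%) were called at an adjusted p under 0.05 (limma), 3 higher (0.0294%) and 5 lower (0.0489%) in lumbar/sacral V7, and 1073 (10.5%) had an unadjusted p under 0.05. With the replicate block, which compares regions within each pool of mice, 61 genes were called, among them all 8. With weights by the number of V7 nuclei only *Tnr* was called, 3 genes were called with no filter on low values, and 4 without cervical replicate 3 or without lumbar/sacral replicate 2. In such sums, fewer nuclei that use a gene and less RNA per nucleus cannot be told apart.

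*Tnr*, which encodes the matrix glycoprotein tenascin R, was lower in lumbar/sacral V7. It stood at 453, 479 and 632 CPM in cervical, 491, 479 and 483 CPM in thoracic and 175, 147 and 197 CPM in lumbar/sacral libraries, so that no library overlapped with the other group. The log2 difference was -1.51 (SE 0.16, adjusted p = 0.00165, limma). *Grin2a*, a subunit of NMDA receptors, was 1189, 875 and 1375 CPM in cervical, 828, 1151 and 980 CPM in thoracic and 328, 529 and 437 CPM in lumbar/sacral V7 (-1.3, SE 0.2, adjusted p = 0.0184, limma). *Vsnl1*, a neuronal calcium sensor, fell by 1.23 (SE 0.16) from 515 ± 42.7 to 220 ± 47.6 CPM, and *Zfp462*, a zinc-finger gene, fell by 1.33 (SE 0.22) from 140 ± 28.3 to 52.4 ± 7.82 CPM. The mitochondrial transcript *mt-Atp6* fell by 1.82 (SE 0.21), from 218 ± 36.5 to 58.5 ± 14.5 CPM. Such transcripts lie outside the nucleus, and their part in the other differences was not tested.

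In the other direction, *Tenm2*, a synaptic adhesion molecule of the teneurin family, was 503, 434 and 567 CPM in cervical, 717, 450 and 454 CPM in thoracic and 1487, 1035 and 1340 CPM in lumbar/sacral V7 (1.3, SE 0.19, adjusted p = 0.0124, limma). *Nxpe4* rose from 53.1 ± 20.5 to 201 ± 31.4 CPM (1.89, SE 0.3). *Cpa6*, a carboxypeptidase, was at 0, 13.5 and 15.2 CPM in cervical, 20.4, 0 and 15 CPM in thoracic and 109, 118 and 168 CPM in lumbar/sacral V7 (3.37, SE 0.54, adjusted p = 0.0267, limma). Its lumbar/sacral values rest on 53 corrected counts in all. With weights by the number of V7 nuclei, the adjusted p of *Cpa6*, *Nxpe4*, *Tenm2*, *Zfp462* and *Grin2a* lay between 0.446 and 0.466 (limma). The same contrast in V1 to V4 had the same sign for all 8 genes, at 1.51 for *Cpa6*, 0.31 for *Nxpe4*, 0.41 for *Tenm2*, -0.6 for *Tnr*, -0.7 for *Zfp462*, -0.36 for *Grin2a*, -0.51 for *Vsnl1* and -0.78 for *mt-Atp6*. For none of the 8 did the region difference in V7 differ from that in V1 to V4 past the threshold (limma, adjusted p from 0.071 to 0.294).

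**Figure D5:**
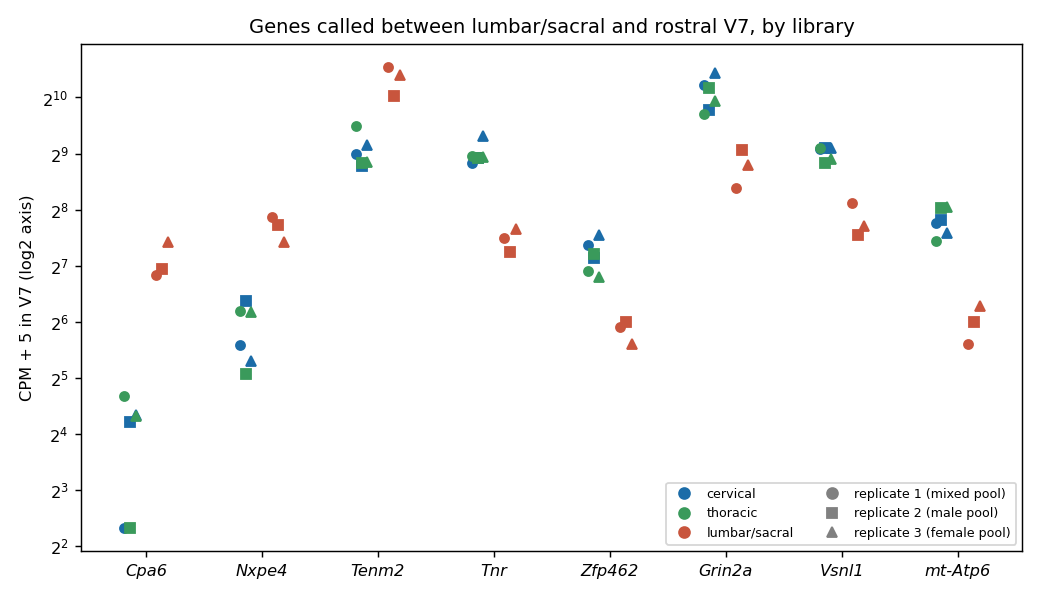
Level in V7 (CPM + 5, on a log2 axis) of the 8 genes called between lumbar/sacral and rostral libraries; each point is a library, coloured by region and shaped by replicate. The 3 lumbar/sacral libraries lie apart from the 6 rostral ones for every gene shown, with *Cpa6*, *Nxpe4* and *Tenm2* above and the other 5 below.

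Of the gene groups, 1 of 21 glutamate receptor genes (*Grin2a*) and 1 of 18 matrix genes (*Tnr*) were called in this contrast, both lower, and none in the other groups, beside 0.0783% of all genes. Hox genes had the largest median, 1.15 over 4 genes, against 0.0891 over all genes tested. *Hoxa9* stood at 4.9 ± 5.76 CPM in rostral and 59.1 ± 26.3 CPM in lumbar/sacral V7, but did not pass (2.83, SE 0.53, adjusted p = 0.0726, limma). Other genes that did not pass included the serotonin receptor *Htr2c* (188 ± 86.2 CPM rostral and 454 ± 77.9 CPM lumbar/sacral, adjusted p = 0.123, limma), *Erbb4* (42 and 195 CPM, adjusted p = 0.11), *Nxph1* (1825 and 1035 CPM, adjusted p = 0.118), *Trpc5* (38.5 and 136 CPM, adjusted p = 0.146) and *Epha7* (200 and 85.1 CPM, adjusted p = 0.121).

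Between cervical and thoracic V7, as labelled, limma called 0 genes (0%), and 64 (0.626%) had an unadjusted p under 0.05. Without the libraries of replicate 2 it again called 0, and 175 had an unadjusted p under 0.05. Between the male and the female pool, with a term for the region, 5 of 9611 genes (0.052%) were called. *Xist*, of the inactive X chromosome, and *Tsix*, which overlaps *Xist* on the opposite strand, were higher in the female pool (0.0208%). The part of *Xist* RNA in the *Tsix* counts was not tested. *Uty*, *Eif2s3y* and *Kdm5d*, of the Y chromosome, were higher in the male pool (0.0312%). *Xist* stood at 1.03, 0 and 0 CPM in male V7 and 876, 1136 and 786 CPM in female V7. No autosomal gene was called, and 560 genes (5.83%) had an unadjusted p under 0.05.

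The difference between regions in V7 was also compared directly with that in V1 to V4, the other clusters with at least 10 nuclei in all 9 libraries. Of 10715 genes tested, 66 (0.616%) differed in this way (limma), 41 with the higher value in V7 (0.383%) and 25 with the lower (0.233%), and 1624 (15.2%) had an unadjusted p under 0.05. With the replicate block 17 were called. For all 25 lower genes, V1 to V4 were higher in lumbar/sacral than in rostral libraries, and 11 of the 25 had under 20 corrected counts in lumbar/sacral V7. *Kcnk2*, a potassium channel opened by stretch and lipids, stood at 30.1 CPM rostral and 173 CPM lumbar/sacral in V1 to V4, whereas V7 had 117 CPM rostral and 91.1 CPM lumbar/sacral (difference of differences -2.49, SE 0.34, adjusted p = 0.0165, limma). *Hs6st2* stood at 75.6 and 160 CPM in V1 to V4 and at 47.4 and 11.7 CPM in V7 (-2.94, SE 0.39), with 4 corrected counts in lumbar/sacral V7. *Rxfp1*, a receptor of relaxin, stood at 1.19 and 120 CPM in V1 to V4, and V7 held 1 corrected count of it in all libraries together. *Mctp2* (-2.59) and *Arhgap6* (-2.12) were likewise at or below 7.09 CPM in V7 on average, with 0 and 2 corrected counts in lumbar/sacral V7. For genes this low a change within V7 could not be seen, and the value is mostly that of V1 to V4. *Mgat4c*, chosen after its values were seen as the gene of lowest p, had 2104 and 2076 CPM in rostral and lumbar/sacral V7 and 505 and 2100 CPM in V1 to V4.

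Most of the 41 higher genes rest on few counts. For 32 of them the 3 lumbar/sacral V7 sums held under 20 corrected counts in all, as for *Zmat4* (17), *Tll1* (13), *Ankrd61* (10) and *Pamr1* (5), whose differences were 2.45, 2.29, 2.12 and 2.16. *Egfem1*, which encodes a secreted or membrane protein with EGF-like domains, rests on 282. It stood at 372 and 716 CPM in rostral and lumbar/sacral V7 and at 732 and 378 CPM in V1 to V4 (2.2, SE 0.36, adjusted p = 0.034, limma). *Slc4a4*, a sodium bicarbonate transporter, stood at 41.3 and 89.8 CPM in V7 and 162 and 73.7 CPM in V1 to V4 (2.39, SE 0.44), on 32 corrected counts. *Egfem1* and *Slc4a4* were each called in 6 of 18 alternatives. When 20 V7 nuclei were drawn from each library, 0 genes were called in this comparison by limma, with 1082 at an unadjusted p under 0.05. Without thoracic replicate 1 it also called 0, with 1347 at an unadjusted p under 0.05.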

How the data were processed

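Nuclei were assigned to libraries, clusters and pools by the labels deposited with each barcode. Per the authors' methods, Cell Ranger 3.1.0 mapped the reads against unspliced transcripts (mm10, GRCm38), and SCTransform in Seurat corrected the counts. The methods describe separate processing by region and do not say whether each library was corrected apart. Depth still differs between libraries, with V7 medians from 4691.5 corrected counts in lumbar/sacral replicate 1 to 15950 in the library labelled cervical replicate 2. The deposited values are therefore whole-number scores from a model and not raw counts, and no count model was run. Scores were summed per library and cluster and scaled to 1000000 (CPM). Genes reaching 10 CPM in 3 or more sums were tested on log2(CPM + 5) by limma (version 3.58.1, R 4.3.3, trend = TRUE), with Benjamini-Hochberg adjustment over all genes tested. The limma functions were tested on simulated data, with 100 genes changed 2-fold and 100 changed 4-fold in lumbar/sacral V7. Between regions, 16 and 73% of these were called in the right direction, with 16 false calls among 10170 genes tested. For the difference from V1 to V4 it was 5 and 58%, with 14 false calls among 10665 genes. A gene that did not pass may thus still differ. Between regions the 16 false calls stood beside 16 and 73 right ones. For the difference from V1 to V4 the 14 false calls stood beside 5 and 58 right ones. In both simulated comparisons the share of false calls among all calls was above the threshold set on the adjusted p. The genes called in these comparisons of V7 may thus include more false ones than that threshold implies. Shares were compared by exact permutation, doublets were called with Scrublet in scanpy 1.11.5 and kept, and nuclei were thinned to 4600 corrected counts where stated, which left out 11 V7 nuclei. Wilson intervals are at 95 percent. A seed of 1 was used with Python 3.11.15.

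Libraries, not nuclei, were the replicates. Libraries with the same replicate number come from the same mice, so the number pairs them. Their deviations from the region means over genes correlated from -0.0898 to 0.424. Since the labels do not separate the mice of a pool, p-values between regions measure the spread between libraries of 3 pools, and those between the male and the female pool, 1 pool each, measure the spread among libraries of the same mice. The members and gene lists were chosen with earlier results of these data known. Genes were named by rule: the markers, up to 4 members of each of 32 lists by their difference from the other V clusters and up to 2 by their region p, the 15 highest and 10 lowest against the other V clusters with the same sign in every library, called region genes that do not overlap, the 6 highest and 6 lowest of the region difference, pool calls, 10 genes highest in V7, and 10 with excess variance. Predicted genes, RIKEN clones, mitochondrial, X-inactivation and Y genes were left out of the ranked parts; *mt-Atp6* is named as 1 of 8 calls, *Mgat4c* after its values were seen, and further list members where a count of 5 or fewer called for them. The result of 1 gene that the rule names is not reported here.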

Additional observations from a re-analysis of the deposited data

Results flagged for a closer look

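In 2 of the 25 genes farthest from the other V clusters, 1 library stood far from the other 8. The difference for *Postn* was 0.694 in the library labelled thoracic replicate 2, and that for *Cntn4* was -4.7 in the library labelled cervical replicate 2. *Tnr* in rostral V7 was 632 CPM in cervical replicate 3, apart from the 5 other rostral libraries at 453 to 491 CPM. Of 38 sets of libraries examined this way, 3 stood out, and chance alone would single out about 1 in 20.

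The difference between lumbar/sacral and rostral libraries in V7 was not that of V1 to V4 for 66 genes in limma. Of the named ones, it was larger in V7 by 2.45 for *Zmat4*, 2.39 for *Slc4a4*, 2.29 for *Tll1*, 2.2 for *Egfem1*, 2.16 for *Pamr1* and 2.12 for *Ankrd61* (log2). It was smaller, with values of -2.94 for *Hs6st2*, -2.59 for *Mctp2*, -2.49 for *Kcnk2*, -2.32 for *Rxfp1* and -2.12 for *Arhgap6*. In lumbar/sacral V7, *Hs6st2* had 4 corrected counts in all, *Mctp2* 0, *Rxfp1* 1 and *Arhgap6* 2, and for the last 3 a change within V7 could not be seen at this depth.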

How the results depend on the processing

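Of 25 genes refitted under the limma alternatives, none changed the sign of its difference, and the other named genes were not refitted one by one. For lumbar/sacral against rostral V7, 8 genes were called, 3 with no filter, 13 with a pseudocount of 20, 61 with the replicate block, which respects the pairing by pool, 1 with weights by the number of V7 nuclei, 16 when 20 nuclei were drawn per library, and 4 to 9 leaving out 1 library (5 without cervical replicate 1, 4 without cervical replicate 3 or lumbar/sacral replicate 2). Without lumbar/sacral replicate 1 or 3, 0 of the calls were higher. *Tnr* was called in all 18 alternatives and *mt-Atp6* in 17, *Vsnl1* in 16, *Tenm2* in 13, *Grin2a* in 12, *Nxpe4* in 11 and *Zfp462* in 9, and *Cpa6* in 10 of 17. For the difference from V1 to V4, 66 genes were called, 19 with a pseudocount of 1, 125 with 20, 17 with the replicate block, 13 with weights, 0 with 20 nuclei drawn (1082 at an unadjusted p under 0.05), and 0 to 89 leaving out 1 library (0 without thoracic replicate 1, 10, 12 and 40 without cervical replicate 1, 2 and 3, 15 without thoracic replicate 3, 22 without lumbar/sacral replicate 1). *Hs6st2* was called in 16 of 18 alternatives, *Kcnk2* in 14, *Egfem1* and *Slc4a4* in 6 and *Zmat4* in 3, and, of 17, *Ankrd61* in 15, *Pamr1* in 9, *Mctp2* in 7 and *Arhgap6* in 4. *Rxfp1* was called in 10 and *Tll1* in 8 of 14. The pool comparison gave 9 calls with no filter, 0 at 10 CPM in every sum (422 at an unadjusted p under 0.05), 2 with a pseudocount of 1, and 1 to 131 leaving out 1 library, with 123 and 131 without cervical replicate 2 and 3, 24 and 27 without thoracic replicate 2 and 3 and 1 without lumbar/sacral replicate 2 or 3, and 5 with a region term of lumbar/sacral against rostral only. No alternative called a gene between cervical and thoracic V7. Against the other V clusters, 160 genes were higher and 173 lower, 95 and 90 with a pseudocount of 20, 101 and 282 with all other V nuclei summed, and 176 to 197 and 190 to 206 leaving out 1 replicate. The share of V7 differed by -6.86 to -4.85 points leaving out 1 replicate. Thinning moved detection of *Piezo2* from 57.6 to 43.6% and of *Fbn2* from 92.1 to 83%. The causes were not tested. The permutation of the share within replicates, drawing 20 nuclei, leaving out both libraries of replicate 2 and the simpler region term were chosen after seeing the data. The 70 lumbar/sacral V7 nuclei limit every comparison with that region.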

Other observations

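The first principal component of the V7 sums (32.2% of the variance over genes) did not separate regions. It separated the mixed pool (all 3 libraries below 0) from the male pool (all 3 above 0), with the female pool on both sides. It placed cervical replicates 1 and 3, thoracic replicate 1 and lumbar/sacral replicate 1 on one side (-60.7 to -25.7) and the other 5 libraries on the other (16.6 to 45.4). The second (19.1%) was highest in the 3 lumbar/sacral libraries (14.5 to 55.5), with rostral ones from -30.7 to 2.53. The sequence of the reporter, listed as GFP-Plasmid, was measured at 7.95 CPM in V7 on average, against 9.63 to 14.1 CPM in the other V clusters.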
